A study of Mus musculus with 4 samples.

Results

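Mucin genes were followed in the MHC-II high medullary thymic epithelial cells (mTEChi) of Aire-KO and WT mice. The 10 genes listed comprise 4 gel-forming mucins (Muc2, Muc5ac, Muc5b, Muc6) and 6 membrane-bound mucins (Muc1, Muc4, Muc13, Muc15, Muc16, Muc20), and each was found by the symbol paired with its RefSeq ID. Of the 10, 8 matched 9 of the 30794 RefSeq IDs counted, 3 of them gel-forming and 5 membrane-bound; Muc20 was held by 2 IDs. Muc6 and Muc16 could not be matched to an ID and were not analysed here. There were 2 libraries labelled Aire-KO (Aire-/-) and 2 labelled WT, 1 of each genotype per experiment, each from mTEChi sorted out of pooled thymi of 4 B6 mice, aged 4 weeks by the methods of the study. The Aire-deficient animals were a germline line on the B6 background and the WT animals were bought from a commercial supplier, so genotype and source of the mice cannot be told apart. Aire is the factor that lets mTEChi transcribe many genes of peripheral tissues. The study asked whether factors of 3' end processing influence the expression of genes that Aire upregulates.

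Mucins are very large glycoproteins whose repeats, rich in serine and threonine, are densely coated with O-linked sugars. Gel-forming mucins are secreted by goblet cells, mucous neck cells and submucosal glands and link up through disulfide bonds into the mucus gel of gut, stomach and airway. Membrane-bound mucins stay on the apical surface of many epithelia, where they form the glycocalyx and, in some cases, carry signals into the cell. In the thymus, products of such peripheral tissues are displayed by mTEChi to developing T cells, and Aire is required for a large part of them.

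Counts summed over 1 RefSeq ID per gene came to 117081790 and 169146257 in the libraries labelled Aire-KO, and 134940417 and 79054374 in those labelled WT. Over all IDs, where a read counts for each ID that holds its exon, the sums were 168899954 and 242862323 in Aire-KO, and 191404483 and 111077552 in WT. Neither is a total of mapped reads. The study states mapped totals for a WT and an Aire-KO library. Its WT total is below the first WT library's sum over 1 ID per gene. Its Aire-KO total is the larger, the reverse of the order of sums in the first experiment. Which libraries these totals belong to was not settled here. Over all 26790 IDs tested, 5.58% were lower and 0.258% higher in Aire-KO by edgeR (1495 and 69 IDs), 16.5% and 10.4% with the experiment as a block, 12.8% and 2.25% by DESeq2, and 16.9% and 3.96% at an unadjusted edgeR p under 0.05. Aire itself had 200697 and 175884 counts in the libraries labelled Aire-KO, against 87229 and 36597 in those labelled WT (log2 fold change 1.60 ± 0.44, SE, edgeR adjusted p = 0.0885, and 0.000448 with the block). These counts are those of the RefSeq ID of Aire with the highest summed count, a noncoding entry. The regions were read from a different, coding ID of Aire. There the coding exons before the last, the 5' UTR and the last-exon region each had more reads in the library labelled Aire-KO than in that labelled WT within each experiment. The deleted part of Aire is not a feature of its own in these tables, so these counts do not check the labels, and every direction given here is that of the labels. All 12 mTEC markers were present, and by edgeR 0 passed the test (0 at an unadjusted p under 0.05, 0 by DESeq2, and 5 higher in Aire-KO with the block). Of 8 fibroblast markers, 3 were higher in Aire-KO (Col1a2, Col3a1, Dpt; 6 at an unadjusted p under 0.05, by DESeq2 and with the block), with summed levels of 316 and 277 CPM (counts scaled to the effective size of each library) against 135 and 109 CPM in WT. Of 9 dendritic cell and macrophage markers, 3 were lower in Aire-KO (Cd209a, Adgre1, Cd14), with sums of 356 and 366 CPM in Aire-KO, and 320 and 585 CPM in WT. Most of these sums was Lyz2 (326 and 345 CPM in Aire-KO, 252 and 489 CPM in WT), which did not pass, so they say little of the other markers. Of 7 cortical epithelial markers, Enpep was lower (2 lower and 2 higher with the block), with sums of 721 and 576 CPM in Aire-KO, and 457 and 537 CPM in WT. The largest part of these sums was Ccl25 (517 and 330 CPM in Aire-KO, 203 and 233 CPM in WT). By edgeR 0 of 10 thymocyte markers passed (3 lower at an unadjusted p under 0.05, 1 lower by DESeq2, 5 lower with the block), with sums of 33.6 and 40.3 CPM in Aire-KO, and 41.9 and 63.6 CPM in WT. Likewise 0 of 4 B cell markers passed (1 lower by each of these 3 readings), and endothelial markers gave 0 of 5 by all of them. The B cell sums, mostly of Cd79b, were 25.6 and 27.2 CPM in Aire-KO, and 20.6 and 34.4 CPM in WT. Endothelial sums were 28.4 and 68.2 CPM in Aire-KO, and 21.9 and 36.9 CPM in WT. No defining marker of these cell types was at 0 in every library, and the part that other cells had in the results on mucins was not tested. In bulk RNA, fewer cells that make a mucin and less mucin RNA per cell cannot be told apart.

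The gene starts of the mucins held different core promoter sequences. In the RefSeq promoter table (build GRCm38.p6), 5 of the 8 matched mucin genes had an entry, and Muc5ac, Muc5b and Muc15 had none. The 30 bases from -40 to -11 before each start are shown because the TATA box, to which the general transcription machinery binds, lies there when present; capitals mark TATAA, which was searched on both strands.
Muc2, chr7:141690300-141690329, + strand: gcctgctaagcaTATAAgtcctggacccct
Muc1, chr3:89229016-89229045, + strand: ggggactggTATAAagcagcaggcaccagc
Muc4, chr16:32735846-32735875, + strand: taccTATAAacctcactttttctcctgtta
Muc13, chr16:33793997-33794026, + strand: tgccactaagcctgatgacctgaattccat
Muc13, chr16:33794449-33794478, + strand: ttgaaagacagttaaaactccaggcagcga
Muc20, chr16:32797446-32797475, - strand: cccggggttgaggaagcaggaaagggtggt
TATAA stood in the windows of Muc2, Muc1 and Muc4, and neither it nor its reverse complement stood in either start of Muc13 or in that of Muc20. Of all 32851 promoters in the table, 4.75% held it in the same window on either strand. Genes with the motif comprised one that was lower in Aire-KO (Muc2) and 2 that did not pass the test (Muc1, Muc4), and Muc13, without it, was lower.

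Muc5ac, Muc5b and Muc2, the 3 listed gel-forming mucins that could be matched, were far lower in the libraries labelled Aire-KO. Muc5ac, the main secreted mucin of the gastric surface and of stimulated airways, had 47 and 71 counts in the libraries labelled Aire-KO, against 7156 and 6466 in those labelled WT. This corresponds to 0.323 and 0.309 CPM in Aire-KO, against 32.7 and 54.2 CPM in WT, and the lowest WT library was far above both Aire-KO libraries. The log2 fold change (Aire-KO over WT) was -7.10 ± 0.52 (SE, edgeR adjusted p = 0.0176). Muc5b, the constitutive gel-forming mucin of airway and salivary glands, had 100 and 30 counts in Aire-KO, against 3934 and 5257 in WT. On the CPM scale these were 0.688 and 0.13 in Aire-KO, against 18 and 44.1 in WT, so that Muc5b differed more between experiments within each genotype than the other gel-forming mucins. Its log2 fold change was -6.26 ± 0.99 (SE, edgeR adjusted p = 0.0276). Muc2, the goblet cell mucin that builds the mucus layer of the colon, had 37 and 34 counts in Aire-KO, against 1889 and 992 in WT. The levels were 0.255 and 0.148 CPM in Aire-KO, against 8.63 and 8.32 CPM in WT, the closest match between WT libraries of any mucin. Its log2 fold change was -5.40 ± 0.56 (SE, edgeR adjusted p = 0.0176). The remaining 30 to 100 counts per Aire-KO library exceeded the floor of 3 counts, so that reads of the 3 genes were still counted there. Whether these reads came from remaining transcripts of the 3 genes was not tested.

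The 3 gel-forming genes lie side by side on chromosome 7 (build NCBIM37, mm9), with Muc2 at chr7:148876268-148940595, Muc5ac at chr7:148974877-149005136 and Muc5b at chr7:149024975-149058990, all on the + strand, and with Muc6 before them on the other strand. Tollip, an adaptor of Toll-like receptor signalling and the next gene after Muc5b, had 73.2 and 73.6 CPM in Aire-KO, against 73.4 and 78.8 CPM in WT (log2 fold change -0.05 ± 0.35, SE, edgeR adjusted p = 0.965). Brsk2, a neuronal kinase and the gene beyond Tollip, had 14 and 0 counts in Aire-KO, against 312 and 130 in WT; its log2 fold change of -4.78 ± 1.48 (SE) had an edgeR adjusted p of 0.12, and of 0.00519 with the experiment as a block. The values of both were given because of their place beside the cluster, and both were chosen after their values were seen. The genes next to any mucin gene, 2 on each side of it or of its cluster, numbered 24. Of these, 19 had enough counts to be tested, with a median log2 fold change of -0.01. By edgeR 1 was lower and 0 were higher in Aire-KO, against 5.58% and 0.258% of all IDs. With the block, 4 were lower and 3 higher, against 16.5% and 10.4% of all IDs. By DESeq2, 4 were lower and 0 higher, against 12.8% and 2.25% of all IDs. The one lower by edgeR was Slc5a12, a lactate transporter gene beyond Ano3 on one side of Muc15. It had 10 and 8 counts in Aire-KO, against 619 and 146 in WT (log2 fold change -5.30 ± 0.84, SE, edgeR adjusted p = 0.0276).

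**Figure D1:**
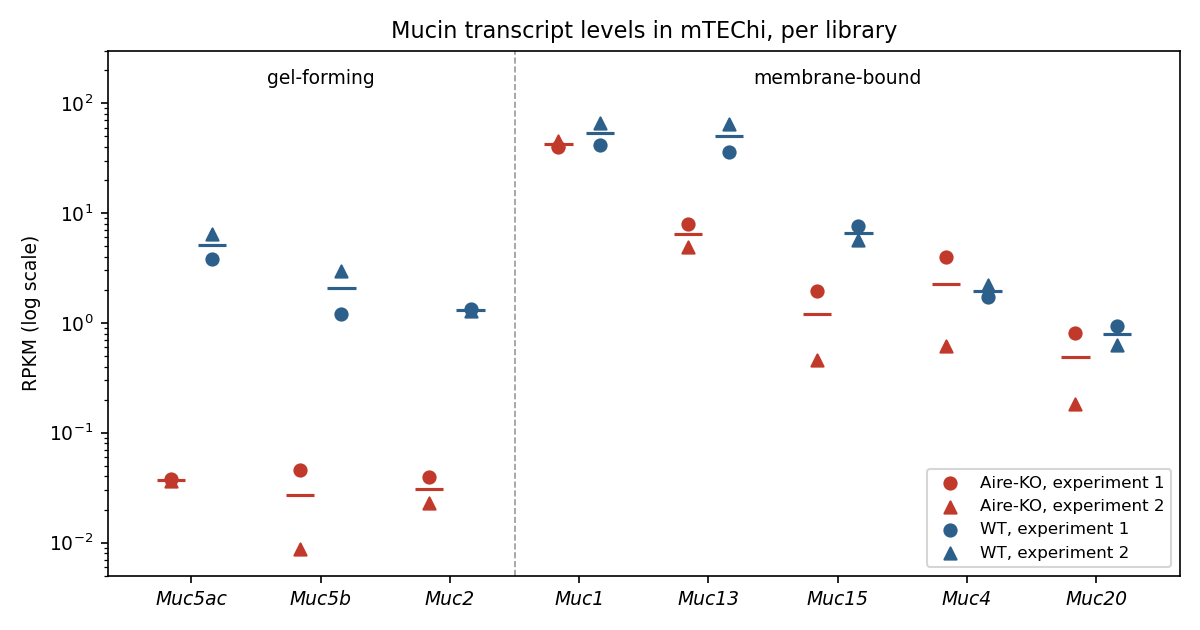
Level of each of the 8 mucins in each library, in reads per kilobase scaled for depth (RPKM, log axis), with Aire-KO at the left of WT for each gene; points are libraries, and short lines are means. Gel-forming mucins lie between 0.00872 and 0.046 RPKM in Aire-KO, and between 1.2 and 6.38 RPKM in WT, while Muc1, Muc4 and Muc20 overlap between genotypes.

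The membrane-bound mucins were more varied, and 1 of the 5 passed the test. Muc13, a short transmembrane mucin of intestinal and tracheal epithelium, had 3451 and 3355 counts in the libraries labelled Aire-KO, against 23233 and 22668 in those labelled WT. These were 23.7 and 14.6 CPM in Aire-KO, against 106 and 190 CPM in WT, with no overlap of the genotypes. The log2 fold change was -2.95 ± 0.49 (SE, edgeR adjusted p = 0.0304), with levels of 6.46 ± 2.18 RPKM in Aire-KO, against 49.9 ± 20 RPKM in WT (SD, n = 2 each). A noncoding transcript on the other strand, Gm15657, shares 184 exonic bp with Muc13, and reads there cannot be assigned. Muc15, a membrane mucin first known from milk fat globules, had 447 and 168 counts in Aire-KO, against 2633 and 1081 in WT. Its levels of 3.08 and 0.731 CPM in Aire-KO were both below the 12 and 9.07 CPM of WT. The log2 fold change of -2.47 ± 0.72 (SE) had an edgeR adjusted p of 0.103, and of 0.000439 with the experiment as a block, so that the call for Muc15 depended on the fit; it was also called by DESeq2 (adjusted p = 0.00267) and by edgeR without the first Aire-KO library (5.63e-05), the first WT library (0.0297) or the second WT library (0.00361). Muc15 lies within Ano3 on the other strand (chr2:110561497-110579684 in mm9), with 61 exonic bp in common, and Ano3, a channel-like membrane protein chosen after its values were seen, had 22 and 56 counts in Aire-KO, against 197 and 62 in WT (edgeR adjusted p = 0.232).

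Muc1, the epithelial mucin found on most glandular surfaces, had the highest mean level per length of all mucins in both genotypes and did not pass the test. It had 12821 and 23212 counts in Aire-KO, against 20140 and 17596 in WT, and its 88.2 and 101 CPM in Aire-KO overlapped with the 92 and 148 CPM of WT. The log2 fold change was -0.34 ± 0.40 (SE, edgeR adjusted p = 0.744), and 0.04 without the second WT library. Muc4, a large membrane mucin that can bind the receptor kinase ErbB2, had 6465 and 1614 counts in Aire-KO, against 4220 and 3005 in WT. Its level was 44.5 CPM in Aire-KO against 19.3 CPM in WT in the first experiment, and 7.02 CPM in Aire-KO against 25.2 CPM in WT in the second, so that the Aire-KO libraries were the highest and the lowest of the 4. The log2 fold change of 0.21 ± 0.78 (SE, edgeR adjusted p = 0.935) turned to -1.66 without the first Aire-KO library and to -0.13 when libraries were scaled by their size alone.

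Muc20, a membrane mucin of kidney and gut epithelium, overlaps with Muc4. On chromosome 16 of mm9, Muc4 lies on the + strand (chr16:32735972-32782477) and Muc20 on the - strand (chr16:32777505-32797521), so that their 3' ends share 4973 bp, 627 bp of which are exonic in both. The kit did not mark strand, and reads in these bases cannot be assigned to either gene. The 2 RefSeq IDs of Muc20 differ in the length of the last exon. The longer ID had 430 and 154 counts in Aire-KO, against 760 and 278 in WT, with overlapping levels of 2.96 and 0.67 CPM in Aire-KO, and 3.47 and 2.33 CPM in WT (log2 fold change -0.68 ± 0.76, SE, edgeR adjusted p = 0.726). The shorter ID had 62 and 47 counts in Aire-KO, against 319 and 259 in WT, without overlap; its log2 fold change of -2.53 ± 0.67 (SE) had an edgeR adjusted p of 0.0824, and of 0.0137 with the experiment as a block.

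The reads of Muc20 were spread unevenly over its regions. Over the coding exons before the last, which both IDs share, there were 52 and 47 reads in Aire-KO, against 256 and 218 in WT. In the last-exon region of the longer ID (1728 bp) there were 378 and 107 reads in Aire-KO, and 501 and 60 in WT. This region therefore held 87.9% and 69.5% of the ID's reads in Aire-KO, and 66.2% and 21.6% in WT. In a fit over the coding exons before the last only, an alternative chosen after seeing the data, Muc20 had a log2 fold change of -2.51 (edgeR adjusted p = 0.052), and Muc4 one of 0.19 (edgeR adjusted p = 0.951). The earlier exons of Muc4 cannot be taken as free of the 627 exonic bp shared with Muc20, since its last-exon region has only 565 bp. How far reads of Muc4 entered the counts of Muc20, or the reverse, was not tested.

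**Figure D2:**
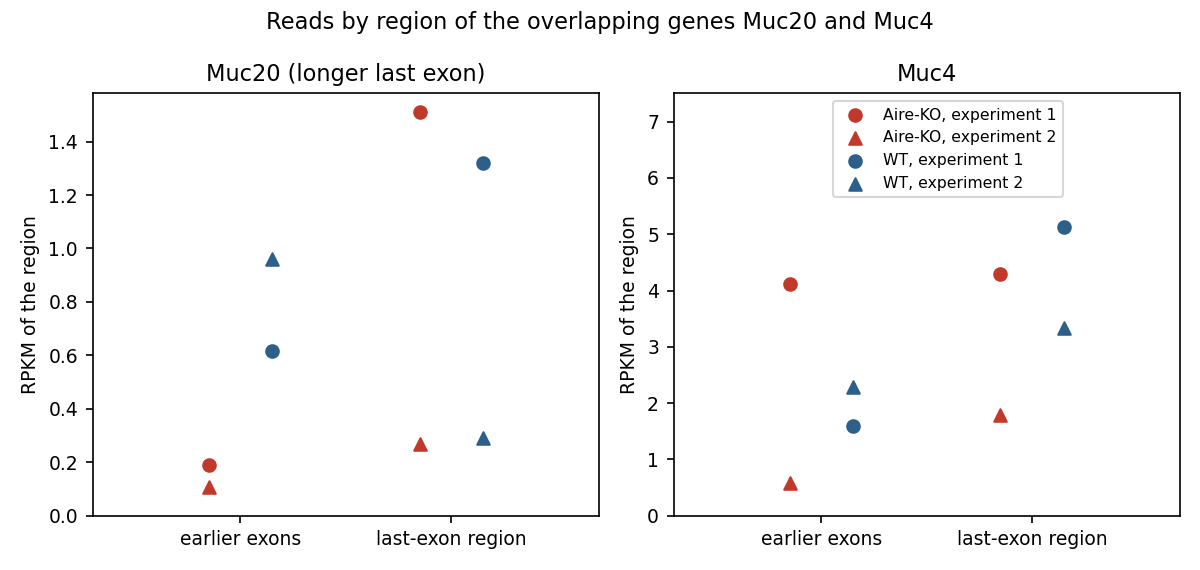
RPKM over the coding exons before the last and over the last-exon region of Muc20 (longer RefSeq ID, left) and Muc4 (right), with Aire-KO at the left of WT; points are libraries. In the earlier exons of Muc20 both Aire-KO libraries (0.188 and 0.107) lie under both WT libraries (0.615 and 0.962), whereas its last-exon region gives 1.51 and 0.269 in Aire-KO, and 1.32 and 0.291 in WT.

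For the 4 mucins that passed the test the difference was present both in the coding exons and in the last-exon region. The coding exons before the last of Muc5ac had 43 and 65 reads in Aire-KO, against 5715 and 5460 in WT, and its last-exon region had 4 and 6 reads in Aire-KO, against 1441 and 1006 in WT. The same regions of Muc13 gave 8.44 and 5.16 RPKM (exons) and 8.32 and 5.06 RPKM (last exon) in Aire-KO, against 34.1 and 70.1 RPKM (exons) and 43.3 and 60.1 RPKM (last exon) in WT. The last-exon region of Muc2 had 5 and 0 reads in Aire-KO, against 361 and 191 in WT, and that of Muc5b 8 and 0 in Aire-KO, against 622 and 292 in WT.

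Read per class of the listed mucins, 3 of 3 gel-forming and 1 of 5 membrane-bound mucins were lower in Aire-KO, and 0 of the 8 were higher by edgeR (0 at an unadjusted p under 0.05, and 0 by DESeq2), whereas 5.58% of the 26790 RefSeq IDs tested were lower and 0.258% higher. Muc19, a gel-forming mucin outside the list, had a log2 fold change of -5.15. It missed the threshold in the main fit (edgeR adjusted p = 0.0787) and would make the count there 3 of 4. Muc19 passed with the block (edgeR adjusted p = 0.00109) and by DESeq2 (adjusted p = 1.66e-05). With the experiment as a block, 3 of 3 gel-forming and 2 of 5 membrane-bound mucins were lower, against 16.5% of all IDs, and the membrane-bound count was 3 without the first Aire-KO library and 2 without either WT library. The median log2 fold change was -6.26 for the gel-forming class (range -7.10 to -5.40) and -0.68 for the membrane-bound class (range -2.95 to 0.21), against 0.03 over all IDs tested, so that the ranges of the 2 classes did not overlap. The membrane-bound median fell on the longer ID of Muc20 and was -2.51 over the coding exons before the last. Without the first Aire-KO library this median was -2.11. The counts of lower membrane-bound mucins also used the longer ID of Muc20. Its shorter ID was lower with the block (edgeR adjusted p = 0.0137) and by DESeq2 (adjusted p = 0.00403). In the main fit the shorter ID did not pass (edgeR adjusted p = 0.0824). Those counts with the block and by DESeq2 thus depend on the ID chosen. Summed over its members, the gel-forming class had 1.27 and 0.587 CPM in Aire-KO, against 59.3 and 107 CPM in WT, and the membrane-bound class had 162 and 124 CPM in Aire-KO, against 233 and 374 CPM in WT. With so few genes, which are not replicates, the difference between classes is a description and was not tested. For 8 of the 8 mucins the log2 ratio was lower in the second experiment than in the first. How many of all IDs moved this way was not counted, so this shows nothing particular to mucins.

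**Figure D3:**
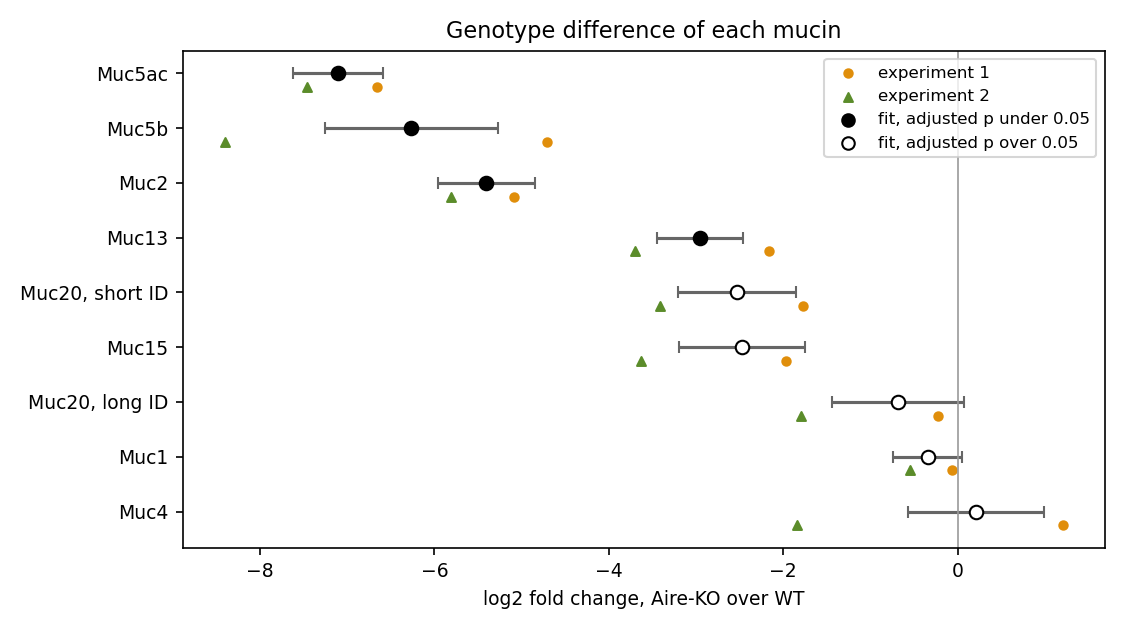
Log2 fold change (Aire-KO over WT) of each mucin RefSeq ID from the edgeR fit with its standard error (large circles, filled where the adjusted p is under 0.05), and the log2 ratio of CPM within the first and the second experiment (small circles and triangles). The 3 gel-forming mucins lie between -7.10 and -5.40, and Muc4 is the one mucin whose ratio is above 0 in the first experiment (1.21) and below 0 in the second (-1.84).

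Per length, the order of the mucins differed between the genotypes. In the libraries labelled Aire-KO, the mean level was 42.3 RPKM for Muc1, 6.46 for Muc13, 2.28 for Muc4, 1.2 for Muc15, 0.494 for Muc20, and 0.0372, 0.031 and 0.0274 for Muc5ac, Muc2 and Muc5b. In those labelled WT it was 53.6 RPKM for Muc1, 49.9 for Muc13, 6.64 for Muc15, 5.11 for Muc5ac, 2.07 for Muc5b, 1.97 for Muc4, 1.3 for Muc2 and 0.79 for Muc20. The libraries of neighbours in this order overlapped for Muc4 and Muc15, for Muc15 and Muc20, and among the gel-forming mucins in Aire-KO. In WT they overlapped for Muc1 and Muc13, for Muc15 and Muc5ac, for Muc5b and Muc4, and the other neighbours did not overlap. The gel-forming mucins thus stood among the membrane-bound ones in WT and below all of them in Aire-KO.

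The genes whose pattern over the 4 libraries lay nearest to a mucin were found among 18692 genes with at least 100 counts in total, by the distance of log2(CPM + 1) centred on each gene's mean. Nearest to Muc5ac, the gel-forming mucin with the highest RPKM, were Sbpl (distance 0.188), Pgc, which encodes the gastric protease precursor pepsinogen C (0.294), and Crabp1, a retinoic acid binding protein (0.427). Pgc had 0.33 and 0.261 CPM in Aire-KO, against 41.3 and 55.7 CPM in WT. Nearest to Muc1, the membrane-bound mucin with the highest RPKM, were Pyurf (0.0269), Qrich2 (0.06) and Ceacam16 (0.0627). Their levels, like that of Muc1, were highest in the second WT library.

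Genes of the mucous cells that make mucins were described through lists, to be read against the 5.58% of all IDs that were lower and the 0.258% that were higher, or 16.5% and 10.4% with the block. Of 18 genes for mucus packaging and goblet cell products, 6 were lower in Aire-KO and 0 higher, the median log2 fold change being -2.33 (13 lower and 1 higher with the block, 11 lower without the first Aire-KO library, 1 higher without the second). The trefoil peptides, small secreted partners of mucins, were among them. Tff3 of intestinal goblet cells had 85 and 105 counts in Aire-KO, against 6144 and 9173 in WT (log2 fold change -6.66 ± 0.68, SE, edgeR adjusted p = 0.0176). Tff1 and Tff2 of the gastric mucosa had log2 fold changes of -4.86 (edgeR adjusted p = 0.0361) and -3.38 (edgeR adjusted p = 0.0369). Agr2, a disulfide isomerase of the endoplasmic reticulum needed to make Muc2, had 58 and 28 counts in Aire-KO, against 816 and 1356 in WT (log2 fold change -4.87 ± 0.89, SE, edgeR adjusted p = 0.0366). Clca1, a goblet cell protease of the mucus gel, had 20.3 and 9.46 CPM in Aire-KO, against 72.7 and 135 CPM in WT (edgeR adjusted p = 0.0425). Retnlb, a goblet cell defence protein, had 0 counts in both Aire-KO libraries, against 309 and 358 in WT, and was at least 131-fold lower in Aire-KO when each Aire-KO library is set to the floor of 3 counts (edgeR adjusted p = 0.0193).

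Goblet cell genes chosen after their values were seen did not all follow this pattern. Fcgbp, a large mucin-like component of mucus, was by far the most abundant gene of the list, with 9890 and 9010 CPM in Aire-KO, against 4090 and 6330 CPM in WT; its log2 fold change of 0.86 ± 0.41 (SE) had an edgeR adjusted p of 0.312, and of 0.0317 with the block. Zg16, a lectin of colonic mucus, had 1.12 and 0.226 CPM in Aire-KO, against 6.07 and 20.6 CPM in WT (edgeR adjusted p = 0.0578, and 0.00154 with the block).

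Transcription factors of mucous epithelia gave 6 lower and 0 higher of 20, their median log2 fold change being -0.98 (9 lower and 2 higher with the block). Spdef, which drives goblet cell maturation, had 0.537 and 0.622 CPM in Aire-KO, against 3.17 and 6.41 CPM in WT (log2 fold change -3.04 ± 0.58, SE, edgeR adjusted p = 0.0385). Cdx2 of the intestine had 14 and 42 counts in Aire-KO, against 999 and 633 in WT (log2 fold change -5.12 ± 0.62, SE, edgeR adjusted p = 0.018). Gata5 and Hnf4a of gut epithelium had log2 fold changes of -5.17 and -2.61 (edgeR adjusted p = 0.0199 and 0.0366). Nkx2-1, the lung and thyroid factor, had one of -4.11 (edgeR adjusted p = 0.0462). Pdx1, the factor of duodenum and pancreas, had 0 and 2 counts in Aire-KO, against 103 and 63 in WT, a ratio of WT over Aire-KO of 92.1 with a 95% exact interval of 25.1 to 767 that covers counting error only (edgeR adjusted p = 0.0387). Without the second WT library 2 of the 20 factors were lower, and the edgeR adjusted p was 0.0925 for Spdef, 0.0581 for Hnf4a, 0.0726 for Pdx1 and 0.116 for Nkx2-1; without the first WT library that of Nkx2-1 was 0.081.

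Of 29 enzymes and chaperones of mucin-type O-glycosylation, 1 was lower and 0 higher, a share below the 5.58% over all IDs, the median being -0.34 on the log2 scale (2 lower and 3 higher with the block, 2 lower without either Aire-KO library, and 1 higher without the second). The lower one was Gcnt3, which builds the branched core structures of secreted mucins, with 61 and 32 counts in Aire-KO, against 770 and 460 in WT (log2 fold change -3.73 ± 0.71, SE, edgeR adjusted p = 0.0387). St6galnac1, which caps the first sugar with sialic acid and was chosen after its values were seen, had 9.61 and 6.72 CPM in Aire-KO, against 2.5 and 3.04 CPM in WT (log2 fold change 1.56 ± 0.44, SE, edgeR adjusted p = 0.0928, and 0.00531 with the block). Of 10 partners of membrane-bound mucins, such as receptor kinases and shedding proteases, 1 was lower, Mmp7 (matrilysin), with 7.54 and 7.43 CPM in Aire-KO, against 25.1 and 40.4 CPM in WT (edgeR adjusted p = 0.0382, and 0.083 without the second WT library); 2 were lower and 1 higher with the block, and 2 were lower without the second Aire-KO or the first WT library. Other mucins and mucin-like genes gave 0 calls of 8 tested by edgeR. At an unadjusted edgeR p under 0.05, 2 were lower and 1 higher, against 16.9% and 3.96% of all IDs. By DESeq2, 2 were lower and 0 higher, against 12.8% and 2.25% of all IDs. With the block, 3 were lower and 1 higher, against 16.5% and 10.4% of all IDs. The smallest p were those of Prg4, the joint lubricant lubricin, and Muc19, a salivary gel-forming mucin. Prg4 had 12.9 and 4.3 CPM in Aire-KO, against 77.8 and 42.1 CPM in WT (edgeR adjusted p = 0.0579, and 7.02e-06 with the block). Muc19 had 28 and 1 counts in Aire-KO, against 671 and 435 in WT (edgeR adjusted p = 0.0787, and 0.00109 with the block).

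**Figure D4:**
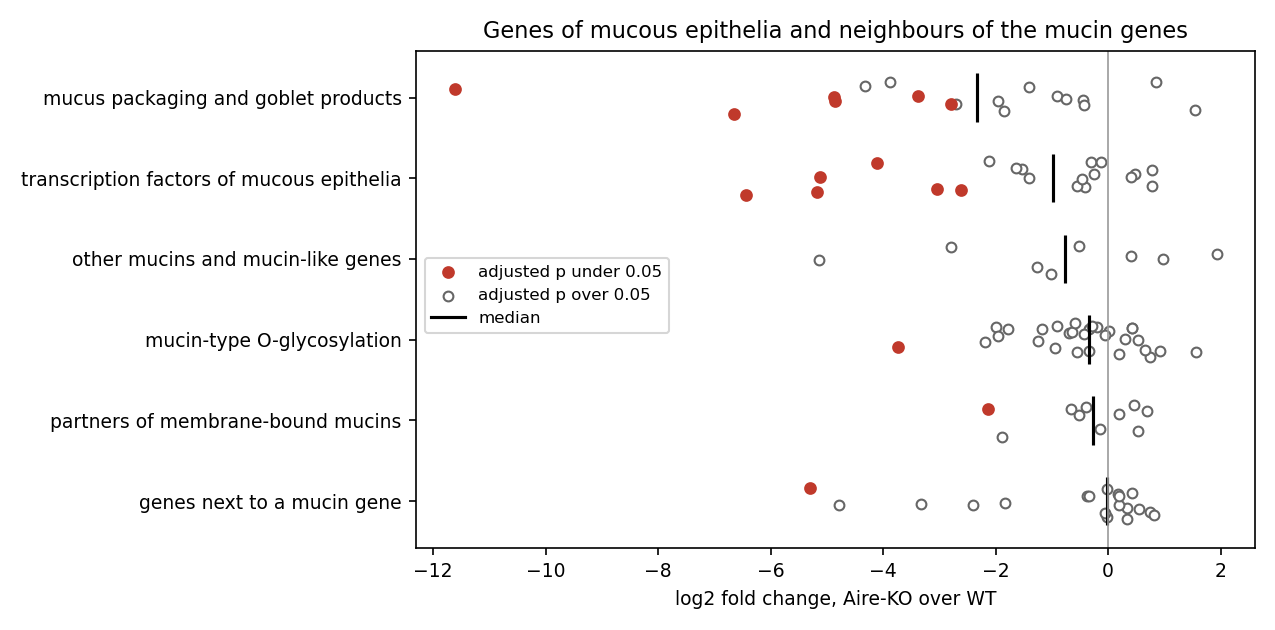
Log2 fold change (Aire-KO over WT) of each tested gene of 6 lists, filled where the adjusted p is under 0.05, with the median of each list as a black line; vertical scatter within a list has no meaning, and the point farthest left is Retnlb, whose fitted value rests on 0 counts in Aire-KO. The medians run from -2.33 for goblet cell products to -0.01 for the genes next to a mucin gene.

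The usage of distal 3' UTR parts, on which the study turned, could be read for 1 of the listed mucins. The shorter ID of Muc20 has a distal part (d3'UTR) of 260 bp, with 1 and 0 reads in Aire-KO, against 10 and 4 in WT, and an upstream part of 350 bp, with 9 and 0 reads in Aire-KO, against 47 and 34 in WT. The ratio of reads per bp was 0.15 in the first Aire-KO library (95% exact interval 0.00341 to 1.08) and had no value in the second, against 0.286 (0.129 to 0.574) and 0.158 (0.0408 to 0.444) in WT. The interaction of region and genotype was -0.16 on the log2 scale (edgeR adjusted p = 1), and over all 8717 IDs tested 0 were called (152 at an unadjusted p under 0.05). At this depth a difference in the d3'UTR usage of Muc20 was not detectable. Muc19, outside the list, has a d3'UTR of 105 bp with 0 and 0 reads in Aire-KO, against 2 and 0 in WT, too few to read.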

How the data were processed

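RNA-seq was made on poly(A)+ RNA with a kit that does not mark strand. Per the submitters' processing notes in the labels, CASAVA, Bowtie 1.0.0 and bedtools were used with build mm9; by the methods of the study, reads lying wholly within an exon of a RefSeq gene were counted, so reads across exon borders are missing from the counts. The authors deposited raw counts of reads per RefSeq ID, and further counts per region of each transcript (5' UTR, coding exons before the last, last-exon region and d3'UTR). These regions do not resolve single exons, so reads are given by region. IDs were named from the RefSeq gene table and the study's tables (29362 of 30794 IDs); a gene with several IDs is represented by the one with the highest summed count. 0 columns belonged to other series.

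edgeR 4.0.16 was run on all IDs passing filterByExpr (TMM factors, quasi-likelihood test, genotype as the only term, Benjamini-Hochberg adjustment, threshold 0.05). It was also run on simulated data, as a check of the code. Those data had the same spread for every ID and no experiment effect, so they do not show how the fit performs on the real libraries. SE is the log2 fold change divided by the root of F. CPM are scaled by TMM, and RPKM are CPM per kb of summed regions. Libraries of an experiment deviated together (correlation 0.534 over 26790 IDs), and the study describes a replicate experiment, so a blocked fit is given where it changes a call. Alternatives were library sizes alone, median-of-ratios size factors, DESeq2, no filter, the block, leaving out each library, 1 ID per gene and counts summed over regions. Genes named are all members, in each list those past the threshold (up to 6, or the first 2 by p where none passed), the 3 nearest genes and Aire. Members and lists were chosen with earlier results of these data known. With 2 libraries a genotype, no exact test can go below p = 0.333, and p-values measure only the spread between these libraries. Intervals and floors cover counting error only.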

Additional observations from a re-analysis of the deposited data

Results flagged for a closer look

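Muc4 had a log2 ratio of Aire-KO over WT of 1.21 in the first experiment and of -1.84 in the second, a difference of -3.05 between experiments (second minus first). It was singled out because the library labelled Aire-KO lay above the WT library in one experiment and below it in the other. With 1 library per genotype and experiment, this difference was not tested. The coding exons before the last of Muc4 span 10221 bp. They had 4.11 and 0.587 RPKM in Aire-KO, against 1.6 and 2.29 RPKM in WT, so the opposite directions were also present there. These exons cannot be taken as free of the 627 exonic bp shared with Muc20, since the last-exon region of Muc4 has only 565 bp. The part that the shared bases had in this difference was not tested.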

How the results depend on the processing

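Muc2, Muc5ac, Muc5b and Muc13 stayed lower in Aire-KO and past the threshold under each of the 12 alternatives of the fit, and 0 mucins were higher under any of them. The count of lower membrane-bound mucins was 2 with DESeq2, 2 with the replicate block and 1 to 3 when a library was left out; their median log2 fold change was -2.51 over the coding exons before the last (chosen after seeing the data) and -2.11 to -0.44 without a library. Over all IDs, those lower numbered 2470 with library sizes alone, 3438 with DESeq2, 4428 with the replicate block and 1524 to 3664 without a library, and those higher 603 with DESeq2, 143 with no filter, 2777 with the block and 66 to 521 without a library. Over the 6 mucin-related lists together, 15 genes were lower and 0 higher, against 28 and 1 with DESeq2, 33 and 11 with the block, and 15 to 25 and 0 to 2 without a library. Reversed signs, none past the threshold, were those of Muc4 (-0.13 with library sizes alone, -0.31 with the block, -1.66 to 1.01 without a library), Muc1 (-0.553 to 0.039 without a library), the longer ID of Muc20 (-2.11 to 0.033, of which -2.11, without the first Aire-KO library, had an edgeR adjusted p of 0.0429 in the main direction) and the d3'UTR interaction of Muc20 (-0.58 to 2.60, at 10 reads or fewer in each distal part). Library sizes alone moved the median of all IDs to -0.26, against 0.03. Over the coding exons before the last, Gata5 and Hnf4a had edgeR adjusted p of 0.0714 and 0.0542. The cause of these shifts was not tested. Where a library was left out, the lone library of its genotype was assumed to vary like the other group. Of 391 values of named genes over these alternatives, 326 kept direction and side of the threshold, 52 passed it newly, 8 missed it and 5 changed sign. Counts under 10 limit the region values of Muc20, Muc2 and Muc5b in Aire-KO.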
